A study of Mus musculus with 8 samples.

Results

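Reference genes, often called housekeeping genes, are transcripts used as internal standards when the amount of another RNA is compared between samples. The 8 examined here in mammary tumors were Actb, Actg1, Hprt, Tbp, Gusb, Ywhaz, Sdha and Tfrc. A gene was read from rows of the deposited expression table whose platform annotation named that gene and no other, and the one with the highest average signal stood for the gene. By this rule 7 of the 8 genes were measured, each by 1 row, out of 23332 rows, of which 14996 carried exactly 1 gene. Actg1, which encodes cytoplasmic gamma-actin, appeared only on a row shared with Rasl2-9 and has no value here. Actb also appeared on a row shared with Lrrc58, which was not used.

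The samples were snap-frozen tissue of 4 MMTV-Wnt/ILK and 4 MMTV-Wnt1 mammary tumors from nulliparous female transgenic mice on an FVB background. Each was hybridized to 1 array of the type Affymetrix Mouse Exon 1.0 ST. Which part of a tumor was taken is not stated. MMTV-Wnt/ILK tumors carried a Wnt1 transgene and a human ILK transgene, and MMTV-Wnt1 tumors carried the Wnt1 transgene alone. Both transgenes were driven by the promoter of the mouse mammary tumor virus (MMTV), which is active in mammary epithelium, so all 8 tumors shared forced Wnt1 expression there. Animal ages on the day of collection and the founder lines are not given in the sources used here, and the tumors are described as independent without a statement on how many mice they came from. P-values therefore measure the spread between these tumors.

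Reference genes are chosen from cell functions that every cell needs. Actb encodes cytoplasmic beta-actin, the protein of the filaments that shape and move cells, and its transcription follows serum response factor and its actin-sensing cofactors. Hprt encodes a purine salvage enzyme, Gusb a lysosomal glycosidase, Sdha the catalytic flavoprotein of succinate dehydrogenase in the citric acid cycle, Tbp the TATA-binding protein of the transcription machinery, Ywhaz a phosphoserine-binding adaptor of the 14-3-3 family, and Tfrc the transferrin receptor, which takes up iron. The Q-RT-PCR of the same study was normalized to beta-actin, GAPDH or both, and its Western blots to beta-actin. That use is the reason for asking which of these transcripts were steady over the arrays.

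All values are log2 expression values, so that a difference of 1 is a doubling. Array medians lay between 6.89 and 7.23. Arrays correlated with each other at 0.920 to 0.974 over all rows, and no pair of arrays was identical. Epcam, an epithelial adhesion molecule, was between 12.39 and 12.82 in MMTV-Wnt/ILK tumors and between 12.33 and 12.89 in MMTV-Wnt1 tumors. The mean of 12 measured luminal epithelial markers ran from 10.21 to 10.76 in MMTV-Wnt/ILK tumors and from 9.75 to 10.41 in MMTV-Wnt1 tumors. Over all rows the median difference between MMTV-Wnt/ILK and MMTV-Wnt1 tumors was -0.03. By limma with Benjamini-Hochberg adjustment 0 rows passed an adjusted p of 0.05, the smallest adjusted p being 0.905, while 1193 rows passed an unadjusted p of 0.05.

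Among the 7 measured reference genes, 6 had a lower mean in MMTV-Wnt/ILK than in MMTV-Wnt1 tumors and 1, Ywhaz, had a higher mean. Over all rows, 54.7% had a lower mean. None of the 7 passed limma's adjusted p of 0.05, against 0% of all rows. At an unadjusted p of 0.05, 1 of the 7 was lower, Actb, where 2.21% of all rows were lower and 5.11% passed in either direction. Which gene passed depended on the scale: with array medians centred Sdha passed as well (unadjusted p = 0.0391), and after repeated quantile normalization Sdha passed (0.0466) and Actb did not (0.0666). In none of the 7 did the groups separate completely, against 2.9% of all rows (1.47% with MMTV-Wnt/ILK higher and 1.42% with it lower). The median difference of the 7 was -0.28.

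Ywhaz was the steadiest of the 7. It measured 11.15, 11.10, 11.21 and 11.15 in MMTV-Wnt/ILK tumors, and 11.19, 11.13, 11.03 and 11.02 in MMTV-Wnt1 tumors. The groups overlapped and no tumor stood apart. The SD over the 8 tumors was 0.07 and the whole range 0.19, a 1.14-fold span, and only 0.320% of rows with 1 gene had a smaller SD. The means were 11.15 ± 0.04 in MMTV-Wnt/ILK tumors and 11.09 ± 0.08 in MMTV-Wnt1 tumors (SD, n = 4 each), a difference of 0.06 with a 95% interval of -0.22 to 0.34 (limma, adjusted p = 0.959). After every array was centred on its own median the SD of Ywhaz was 0.16, and 10.2% of rows then had a smaller SD.

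Gusb was the other gene whose SD lay below 0.29, the median SD of rows with 1 gene, which was taken as the limit for calling a gene steady. Gusb measured 7.77, 8.54, 8.22 and 8.06 in MMTV-Wnt/ILK tumors, and 8.14, 8.48, 8.28 and 8.26 in MMTV-Wnt1 tumors. MMTV-Wnt/ILK tumors 1 and 4 were the lowest of the 8, and the MMTV-Wnt/ILK group also held the highest value. The SD over the 8 tumors was 0.24, with 37.9% of rows less variable, and the groups differed by -0.14 (95% interval -0.57 to 0.28, limma, adjusted p = 0.924). Leaving out tumor 1 of MMTV-Wnt/ILK gave -0.01, leaving out its tumor 2 gave -0.27, and leaving out tumor 2 of MMTV-Wnt1 gave -0.08. Without MMTV-Wnt1 tumor 1 the SD of Gusb was 0.26 and no longer below the median SD of the rows.

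**Figure D1:**
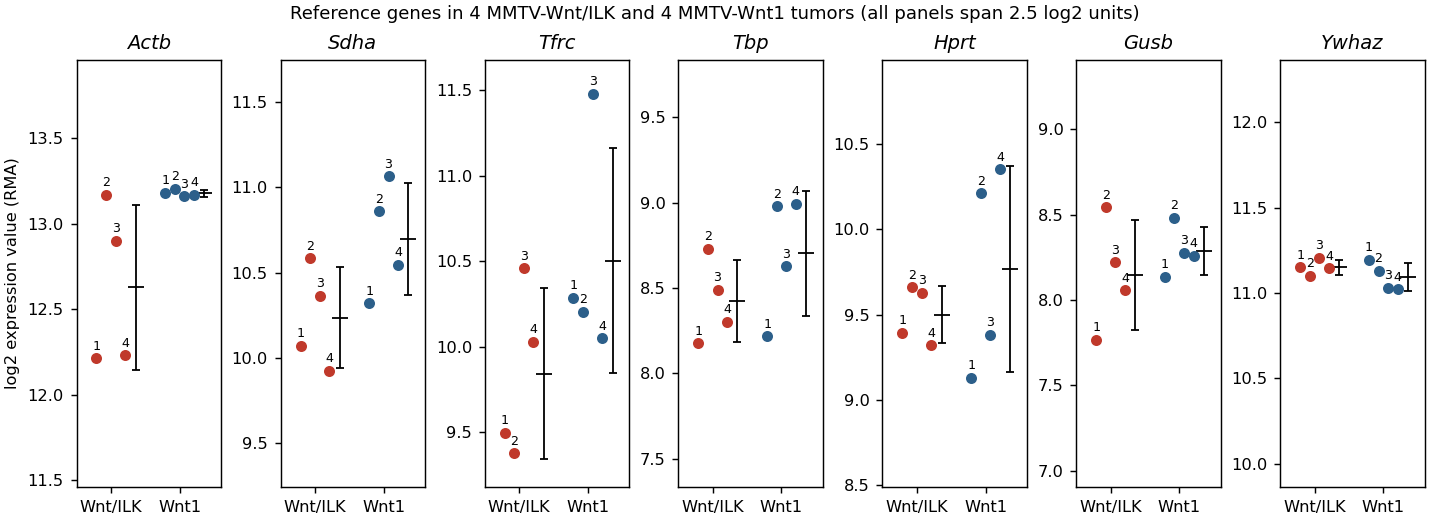
Log2 expression value (vertical axis) of the 7 measured reference genes in each tumor, with MMTV-Wnt/ILK tumors left of MMTV-Wnt1 tumors; points are single tumors and bars the group mean with its SD (n = 4 each). The 4 Actb values of MMTV-Wnt1 tumors lie within 13.16 to 13.21, whereas 3 of the 4 MMTV-Wnt/ILK values lie below them, down to 12.21.

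Tbp, Sdha, Hprt and Tfrc were above the limit. Tbp measured 8.18, 8.73, 8.49 and 8.30 in MMTV-Wnt/ILK tumors, and 8.22, 8.98, 8.63 and 8.99 in MMTV-Wnt1 tumors. The groups overlapped, and the lowest tumor of either group was tumor 1. Its SD over the 8 tumors was 0.32, wider than 57.9% of rows, and the difference was -0.28 (95% interval -0.77 to 0.21, limma, adjusted p = 0.910), or -0.44 when tumor 1 and -0.18 when tumor 4 of MMTV-Wnt1 was left out. With array medians centred its SD was 0.24, below the limit, so that 3 of the 7 genes counted as steady on that scale.

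Hprt measured 9.39, 9.66, 9.63 and 9.32 in MMTV-Wnt/ILK tumors, and 9.13, 10.21, 9.38 and 10.35 in MMTV-Wnt1 tumors. The spread lay in the MMTV-Wnt1 group, whose tumors 1 and 3 were low and tumors 2 and 4 high, with all MMTV-Wnt/ILK values between its lowest and highest. The SD was 0.17 in MMTV-Wnt/ILK tumors and 0.60 in MMTV-Wnt1 tumors, and 0.43 over all 8. The MMTV-Wnt1 array medians were 6.89, 7.23, 7.02 and 7.17 in the same tumor order, and centring on them left an SD of 0.35 over all 8. The difference between groups was -0.27 (95% interval -0.92 to 0.38, limma, adjusted p = 0.916). Of the MMTV-Wnt1 group, leaving out tumor 1 gave -0.48, tumor 2 gave -0.12 and tumor 4 gave -0.07.

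Sdha measured 10.07, 10.59, 10.36 and 9.93 in MMTV-Wnt/ILK tumors, and 10.32, 10.86, 11.06 and 10.54 in MMTV-Wnt1 tumors. Tumors 1 and 4 of MMTV-Wnt/ILK were under every MMTV-Wnt1 tumor and the other two overlapped with them. The means were 10.24 ± 0.30 in MMTV-Wnt/ILK tumors and 10.70 ± 0.33 in MMTV-Wnt1 tumors (SD, n = 4 each), a difference of -0.46 with a 95% interval of -0.95 to 0.03 (limma, unadjusted p = 0.0642, adjusted p = 0.905). A two-sided exact permutation test, which went through all 70 assignments, gave p = 0.143 for Sdha. The smallest p this test can give is 0.029.

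Tfrc varied most. It measured 9.49, 9.38, 10.46 and 10.03 in MMTV-Wnt/ILK tumors, and 10.28, 10.20, 11.48 and 10.05 in MMTV-Wnt1 tumors. Tumors 1, 2 and 4 of MMTV-Wnt/ILK were under the lowest MMTV-Wnt1 tumor and tumor 3 was not, and MMTV-Wnt1 tumor 3 was far above the rest. Its range of 2.10 amounts to a 4.30-fold span, its SD over the 8 tumors was 0.65, and 91.4% of rows varied less. The difference of -0.66 had the widest interval of the 7 genes, -1.49 to 0.16 (limma, adjusted p = 0.905; exact permutation test, p = 0.171).

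**Figure D2:**
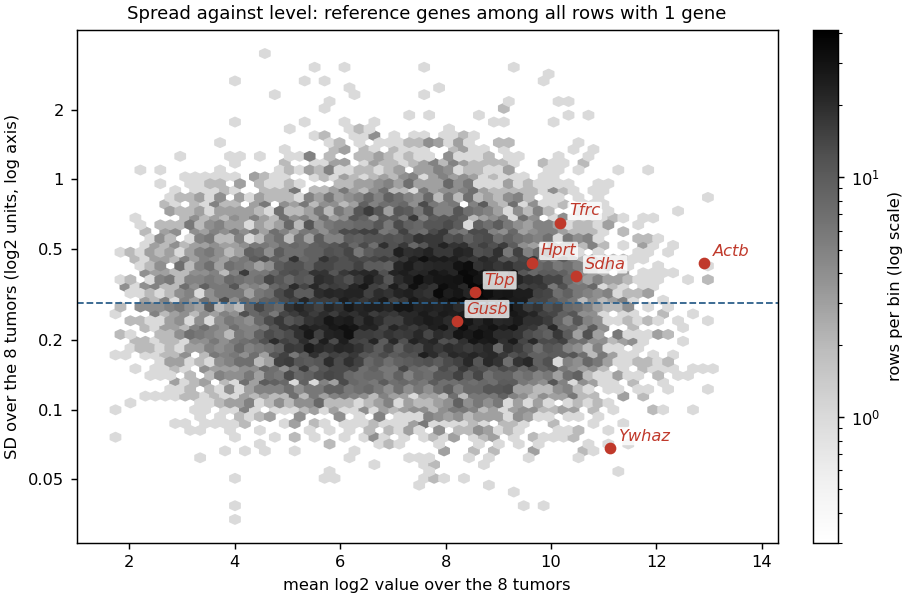
SD over the 8 tumors (vertical, log axis) against mean log2 value (horizontal) for all 14996 rows with 1 gene, shaded by the number of rows per bin, with the 7 reference genes in red and the median SD of 0.29 as a dashed line. Ywhaz and Gusb lie below the line and Tbp, Sdha, Actb, Hprt and Tfrc above it.

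Actb had an SD of 0.43 over the 8 tumors, close to that of Hprt, and 76.4% of rows varied less. It measured 12.21, 13.17, 12.90 and 12.23 in MMTV-Wnt/ILK tumors, and 13.18, 13.21, 13.16 and 13.17 in MMTV-Wnt1 tumors. MMTV-Wnt/ILK tumors 1, 3 and 4 lay below every MMTV-Wnt1 tumor, tumors 1 and 4 furthest, and tumor 2 lay within the MMTV-Wnt1 range. The means were 12.63 ± 0.48 in MMTV-Wnt/ILK tumors and 13.18 ± 0.02 in MMTV-Wnt1 tumors (SD, n = 4 each). The difference was -0.55 (standard error 0.23, 95% interval -1.08 to -0.02), which is 0.683 of the MMTV-Wnt1 level. By limma the unadjusted p was 0.0423 and the adjusted p 0.905, and the exact permutation test, two-sided, gave p = 0.0857. The difference therefore did not pass the test across all rows.

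The spread of Actb was unequal between the groups. Its SD within MMTV-Wnt/ILK tumors was wider than that of 89.0% of rows with 1 gene, whereas its SD within MMTV-Wnt1 tumors was wider than that of only 0.0400% of them. Actb was 1 of the 14 rows with 1 gene and the highest mean signal, a group chosen after the values were seen. Their median SD was 0.21 in MMTV-Wnt1 tumors and 0.19 in MMTV-Wnt/ILK tumors. None had a smaller SD than Actb in MMTV-Wnt1 tumors, and none had a larger SD in MMTV-Wnt/ILK tumors. In MMTV-Wnt1 tumors Actb, at 13.16 to 13.21, lay near the array maxima of 13.62 to 13.86. Rows of similar level in these tumors differed in spread. Eef2, with a mean of 13.14, had an SD of 0.03 there, whereas Ly6e, also at 13.14, had 0.26. Aldoa, at 13.07, had an SD of 0.34. Among the reference genes, Gusb was the other one with a wider SD in MMTV-Wnt/ILK than in MMTV-Wnt1 tumors, 0.32 against 0.14. The equality of the 2 spreads was not tested. The limma intervals and p-values use 1 pooled spread for both groups, which these SDs of Actb do not share.

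MMTV-Wnt/ILK tumors 1 and 4 set most of the Actb difference. A gap of 0.67 separated them from the next tumor, and without tumor 1 the difference was -0.41 (limma, unadjusted p = 0.117), and without tumor 4 it was -0.42 (unadjusted p = 0.119). Among the other 6 measured genes, the same 2 tumors were the lowest 2 of the 8 for Gusb and Sdha. Over all rows with 1 gene this held for 8.39%. With array medians centred, tumors 1 and 4 were the lowest 2 for Tbp as well, against 7.70% of rows. Since tumors 1 and 4 were picked by their Actb values, Actb is left out here and these shares are a description.

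The ratio of Actb to another gene within 1 array does not change when a constant is added to that array's log2 values. Relative to Ywhaz, the steadiest gene, the log2 ratio of Actb was 1.06, 2.07, 1.70 and 1.09 in MMTV-Wnt/ILK tumors, and 1.99, 2.07, 2.13 and 2.15 in MMTV-Wnt1 tumors. Tumors 1, 3 and 4 of MMTV-Wnt/ILK were again below all MMTV-Wnt1 tumors and tumor 2 was not. The ratio differed by -0.61 (95% interval -1.15 to -0.06, limma, unadjusted p = 0.0322, adjusted p = 0.862). Its SD was 0.49 in MMTV-Wnt/ILK tumors and 0.07 in MMTV-Wnt1 tumors, which the interval pools.

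Relative to Gusb, the log2 ratio of Actb was 4.44, 4.63, 4.68 and 4.17 in MMTV-Wnt/ILK tumors, and 5.04, 4.73, 4.88 and 4.91 in MMTV-Wnt1 tumors. Here the highest MMTV-Wnt/ILK tumor was under the lowest MMTV-Wnt1 tumor, and this was the only one of the 6 ratios in which the groups did not overlap. On the deposited scale, 1.42% of all rows had groups that did not overlap in this direction. That share was not counted on the scale relative to Gusb. The difference was -0.41 (95% interval -0.87 to 0.05, limma, unadjusted p = 0.0737, adjusted p = 1.000).

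Against the remaining genes the difference in Actb was smaller. The ratio to Hprt differed by -0.28 (95% interval -1.04 to 0.47), that to Tbp by -0.27 (-0.81 to 0.27), and that to Sdha by -0.09 (-0.64 to 0.46). Relative to Tfrc the sign turned, with a difference of 0.11 (-0.95 to 1.17). Adjusted p-values by limma for these 4 ratios were 0.663 to 0.949. The intervals include 0 and also include a decrease as large as that of Actb itself, so they do not show that Actb moved alike with these genes.

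Set against the mean of the other 6 measured genes, the log2 value of Actb was 2.87, 3.50, 3.17 and 2.77 in MMTV-Wnt/ILK tumors, and 3.63, 3.23, 3.18 and 3.30 in MMTV-Wnt1 tumors. Tumor 2 of MMTV-Wnt/ILK was above 3 of the MMTV-Wnt1 tumors, while tumors 1, 3 and 4 were below all of them. The difference was -0.26 (standard error 0.21, 95% interval -0.73 to 0.21, limma, adjusted p = 0.525).

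**Figure D3:**
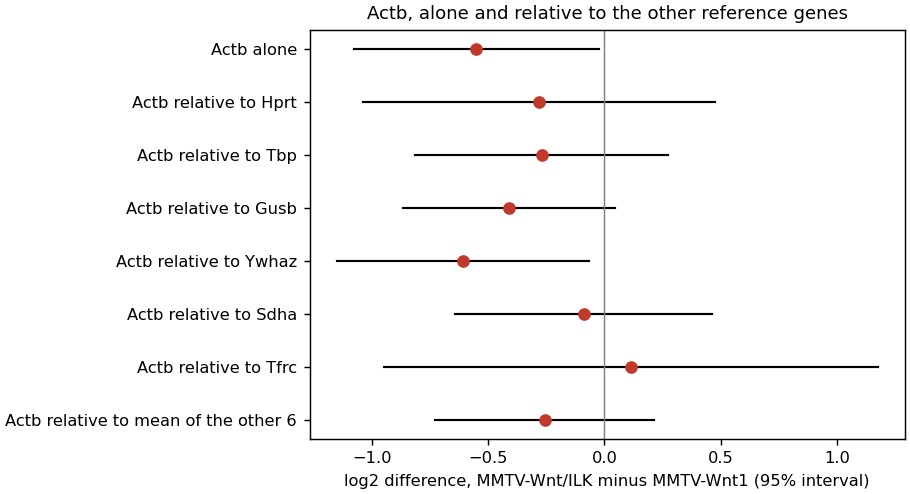
Difference between MMTV-Wnt/ILK and MMTV-Wnt1 tumors in Actb alone and in the log2 ratio of Actb to each other reference gene and to the mean of the other 6 (horizontal axis, log2 units), with 95% intervals from limma (n = 4 each). The interval excludes 0 for Actb alone and for its ratio to Ywhaz, and the ratio to Tfrc is the one with a positive difference.

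The 21 pairs of measured genes show how steady the ratio of 2 genes was over the tumors, whatever the level of the array. The SD of a ratio mixes the spread of each gene with any shared movement. A small value therefore need not mean that 2 genes moved together. For Gusb with Ywhaz it was 0.27, above the 0.24 of Gusb itself. The SD of the log2 ratio was smallest for Hprt with Tbp and for Tbp with Gusb, 0.20 each, followed by Actb with Sdha at 0.26. It was largest for Hprt with Tfrc, at 0.83. Averaged over its pairs, each gene's ratio SD was 0.34 for Gusb, 0.35 for Tbp, 0.37 for Sdha, 0.41 for Actb, 0.44 for Ywhaz, 0.46 for Hprt and 0.67 for Tfrc. Ywhaz, the steadiest gene in its own values, was therefore behind Gusb, Tbp, Sdha and Actb by this measure. A ratio to a gene this steady takes on much of the other gene's own spread.

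The promoters of the pair with the smallest and of the pair with the largest ratio spread are shown for comparison. Promoter sequences were taken from RefSeq (GRCm38.p6), where 6 of the 8 genes matched, all but Actb and Ywhaz. The 120 bases before the transcription start are printed 5′ to 3′ on the strand of the gene, with GGGCGG or its reverse complement CCGCCC, the core of the GC box, in capitals. They lie at chrX:52987958-52988077 for Hprt, chr17:15499768-15499887 for Tbp, and, for the 2 starts of Tfrc, at chr16:32608776-32608895 and chr16:32609002-32609121, all on the plus strand.
Hprt: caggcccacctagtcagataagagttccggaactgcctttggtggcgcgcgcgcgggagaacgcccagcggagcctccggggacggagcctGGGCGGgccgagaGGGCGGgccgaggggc
Tbp: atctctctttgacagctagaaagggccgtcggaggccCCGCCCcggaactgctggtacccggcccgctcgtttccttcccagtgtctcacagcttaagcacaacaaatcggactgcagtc
Tfrc, first start: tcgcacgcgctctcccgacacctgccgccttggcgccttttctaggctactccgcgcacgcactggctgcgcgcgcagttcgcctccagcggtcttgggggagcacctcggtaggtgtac
Tfrc, second start: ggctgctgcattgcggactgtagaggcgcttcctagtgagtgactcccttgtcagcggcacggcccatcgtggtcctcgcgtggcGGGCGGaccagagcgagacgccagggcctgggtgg
In the 250 bases before the start, searched on both strands, GGGCGG occurred 2 times for Hprt, 1 time for Tbp, 0 times at the first Tfrc start and 1 time at the second. Of 32851 promoters of the same length, 32.7% held it. TATAAA, the TATA box core, occurred in none of these 4 windows and in 12.4% of all promoters. CCAAT occurred 1 time before the first Tfrc start, 124 bases upstream, and in 33.8% of all promoters. These matches describe letters and say nothing about binding.

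The effect of the choice of reference was measured by subtracting each gene's log2 value from every row of its array and repeating the limma fit. With no subtraction, an unadjusted p of 0.05 was passed by 678 rows that were higher and 515 that were lower in MMTV-Wnt/ILK tumors. Relative to Actb, 5185 rows were higher and 17 lower, 22.3% of all rows, and the median difference over all rows was 0.52. The low Actb of MMTV-Wnt/ILK tumors thus added 0.55, or 1.46-fold, to every other gene's difference. None of these rows passed the adjusted p of 0.05 by limma, the smallest adjusted p being 0.191.

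Relative to Sdha, 4489 rows were higher and 20 lower, and relative to Tbp 2230 were higher and 72 lower. Relative to Tfrc, 2175 were higher and 19 lower, and this was the only reference with rows past the adjusted p of 0.05, 84 higher and 2 lower. Hprt gave 1190 higher and 57 lower. The split was thus towards higher rows with each of these genes.

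The share of rows past that p was near the 5.11% without a reference for Ywhaz, Hprt (5.34%) and Gusb. Relative to Gusb, 939 rows were higher and 174 lower, 4.77% of rows, with a median difference of 0.11. Relative to Ywhaz, 417 were higher and 734 lower, 4.93% of rows, with a median difference of -0.09. Ywhaz was the only reference that gave more lower than higher rows. Within a fit every row carries the subtracted gene's values, so these counts are not independent evidence about the rows.

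**Figure D4:**
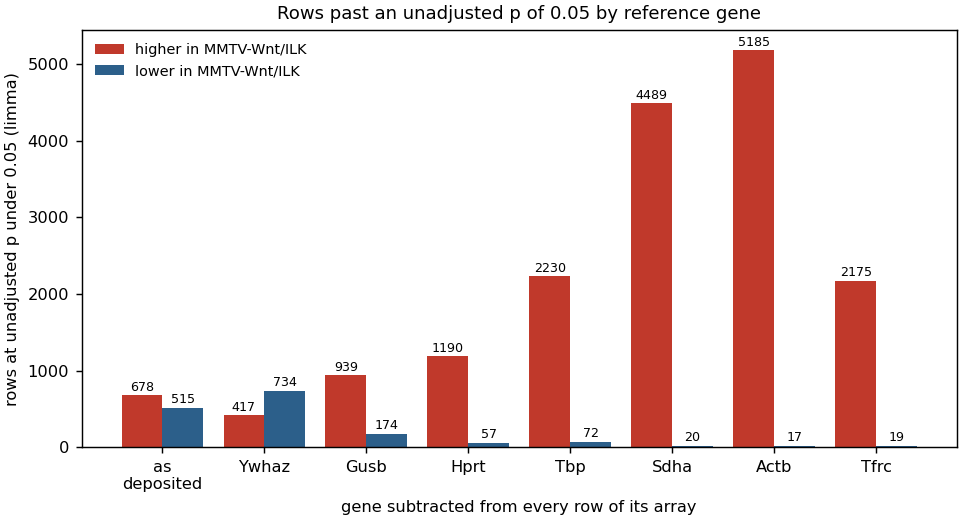
Number of rows higher and lower in MMTV-Wnt/ILK than in MMTV-Wnt1 tumors at an unadjusted p of 0.05 (limma, 23332 rows), with no reference and after subtraction of each reference gene. Subtracting Actb gives 5185 higher and 17 lower rows, against 678 and 515 with no reference.

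The genes most like Actb over the 8 tumors were those with the smallest SD of the log2 ratio to Actb, among 8566 rows with 1 gene and a mean above that of the median row. They were Ciapin1, an iron-sulfur cluster assembly factor that protects cells from apoptosis, with 0.10, Mapk1ip1l with 0.13, and Vdac1, the voltage-dependent anion channel of the outer mitochondrial membrane, Psmd2, a subunit of the proteasome's regulatory particle, and Hsd17b7, a sterol and estrogen synthesis enzyme, with 0.14 each. Ciapin1 measured 8.68, 9.45, 9.20 and 8.65 in MMTV-Wnt/ILK tumors, and 9.33, 9.58, 9.59 and 9.50 in MMTV-Wnt1 tumors. MMTV-Wnt/ILK tumors 1 and 4 were the lowest of the 8 for all 5 genes. These genes were picked for following Actb over the same tumors, so their shared low pair follows from the choice. Among the reference genes, Sdha ranked 186 in likeness to Actb, Gusb 294, Tbp 759, Ywhaz 3622, Hprt 3926 and Tfrc 7078.

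**Figure D5:**
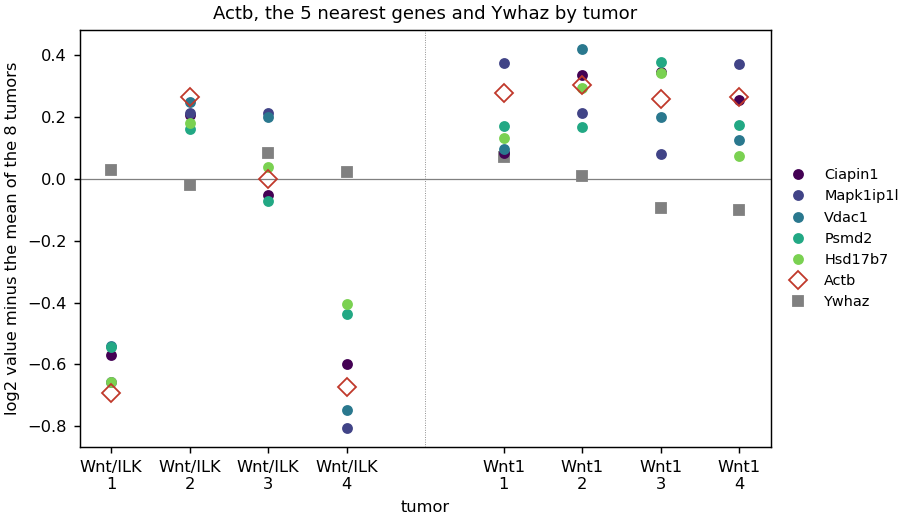
Log2 value minus the gene's own mean over the 8 tumors (vertical axis) for Actb (diamonds), the 5 genes most like it (circles) and Ywhaz (squares), by tumor, with MMTV-Wnt/ILK tumors left of MMTV-Wnt1 tumors. Actb and the 5 genes are lowest in MMTV-Wnt/ILK tumors 1 and 4, while Ywhaz stays near its mean in all 8. The 5 genes were picked for following Actb over these tumors.

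The other actin genes did not share 1 pattern. Of 11 listed, 6 had a row of their own, of which MMTV-Wnt/ILK tumors averaged higher in 1 and lower in 5, with none past an unadjusted p of 0.05 (median difference -0.24). Acta2, smooth muscle actin, differed by -0.13, Actg2, enteric smooth muscle actin, by 0.04, Actbl2 by -0.67, Actr1a of the dynactin complex by -0.30 and Actl6a of chromatin remodelling complexes by -0.39. Acta1, skeletal muscle actin, measured 6.53, 6.44, 11.14 and 6.24 in MMTV-Wnt/ILK tumors, and 10.41, 6.85, 6.90 and 6.91 in MMTV-Wnt1 tumors. It was high in MMTV-Wnt/ILK tumor 3 and MMTV-Wnt1 tumor 1, the same 2 tumors in which the mean of the skeletal muscle markers, Acta1 among them, was 8.38 and 7.41, while it lay between 6.02 and 6.26 in the others.

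The median difference of the genes around actin differed by list, against -0.03 over all rows. Of 38 measured genes of actin filament dynamics (cofilin, profilin, Arp2/3 and others), 17 averaged higher and 21 lower, with none past an unadjusted p of 0.05 (median -0.04). Of 22 genes of serum response factor and its cofactors and targets, 15 were higher and 7 lower in mean, again with none past that p (median 0.03). Of 12 genes of actin processing and folding, mostly subunits of the CCT chaperonin and prefoldin, 1 was higher and 11 lower in mean and none passed (median -0.17).

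Among relatives of Sdha, all 16 measured genes of succinate dehydrogenase and the citric acid cycle averaged lower in MMTV-Wnt/ILK tumors, with a median difference of -0.28, against -0.03 over all rows. The other succinate dehydrogenase subunits, Sdhb, Sdhc and Sdhd, differed by -0.41, -0.42 and -0.48, near the -0.46 of Sdha. Idh3a, a subunit of NAD-dependent isocitrate dehydrogenase, measured 9.59, 9.72, 9.66 and 9.61 in MMTV-Wnt/ILK tumors, and 9.75, 10.76, 10.03 and 10.08 in MMTV-Wnt1 tumors. Its groups did not overlap, which in this direction held for 1.42% of all rows, and it differed by -0.51 (limma, unadjusted p = 0.042, adjusted p = 0.905). Idh3a and Sdhc were the 2 of the 16 past an unadjusted p of 0.05, where 5.11% of all rows passed and 2.21% were lower, and none passed the adjusted p. The mean of the 16 genes was highest in MMTV-Wnt1 tumor 2, whereas the other 7 tumors lay between 9.15 and 9.67. This tumor also had the highest fat cell markers, among them Ucp1, the uncoupling protein of brown fat, at 10.80, against 4.66 to 5.45 in the others. Without it, all 16 genes still averaged lower, with a median difference of -0.19, but none passed an unadjusted p of 0.05, and Idh3a differed by -0.31 (limma, unadjusted p = 0.0800).

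Of the 3 measured relatives of Ywhaz, Ywhae and Ywhab were below the limit of 0.29. Ywhae had an SD over the 8 tumors of 0.12 and a difference of -0.09, and Ywhab an SD of 0.16 and a difference of 0.09. Sfn, the epithelial 14-3-3 protein, was just above the limit with an SD of 0.30 and differed by 0.05. None passed an unadjusted p of 0.05, and the other 3 listed members of the family were not measured by a row of their own.

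The lists around Tbp, Hprt, Gusb and Tfrc are set against the 5.11% of all rows that passed an unadjusted p of 0.05. Of 14 TFIID subunits and relatives of Tbp, 4 were higher and 10 lower in mean, with Taf9 past an unadjusted p of 0.05 at -0.58. Of 15 purine genes, 6 were higher and 9 lower, with Adssl1, an adenylosuccinate synthase, past it at 0.44. Of 20 lysosomal glycosidases and their partners, 11 were higher and 9 lower, with Gaa at 0.36 and Hyal1 at -0.64 past it. Of 18 iron genes, 8 were higher and 10 lower and none passed. No gene of these lists passed limma's adjusted p of 0.05.

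Of 32 symbols listed for other commonly used reference genes, 15 were measured, 4 with a higher and 11 with a lower mean. Of these 15, 9 had an SD below the limit of 0.29. The list holds Atp5b also under its other name, Atp5f1b, which had no row. Gapdh, the other standard named in the Q-RT-PCR methods, had no row of its own. Tubb5, a beta-tubulin, measured 10.83, 11.32, 11.06 and 10.73 in MMTV-Wnt/ILK tumors, and 11.40, 11.74, 11.32 and 11.61 in MMTV-Wnt1 tumors. The groups did not overlap, narrowly, which in this direction held for 1.42% of all rows, and the difference was -0.53 (limma, unadjusted p = 0.015, adjusted p = 0.905). B2m, the light chain of MHC class I, differed by -0.64 without passing. Polr2a, the large subunit of RNA polymerase II, and Atp5b, the beta subunit of ATP synthase, were named after their values were seen because they were steady, with SDs of 0.12 and 0.14 and differences of 0.10 and -0.18.

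Levels of cell type markers differed between the tumors. In unsorted tumor tissue, fewer cells of a type and less RNA per cell cannot be told apart. Of 13 measured fibroblast and stroma markers, 12 averaged higher in MMTV-Wnt/ILK tumors, where 45.3% of all rows did. None of the 13 passed the unadjusted p threshold by limma. The mean log2 value of these markers per tumor was 9.81 to 10.64 in MMTV-Wnt/ILK tumors and 7.90 to 10.20 in MMTV-Wnt1 tumors. The lowest, 7.90, was MMTV-Wnt1 tumor 3, the tumor with the highest Tfrc. MMTV-Wnt1 tumors 1, 2 and 4 lay at 10.06, 10.15 and 10.20, within the MMTV-Wnt/ILK range. The lower level of the MMTV-Wnt1 group thus rested largely on tumor 3. How many of the 13 average higher without that tumor was not counted. Fat cell markers ran from 6.24 to 6.59 in MMTV-Wnt/ILK tumors and from 6.05 to 8.58 in MMTV-Wnt1 tumors, with tumor 2 highest. Leukocyte markers were at 6.82 to 7.53 in MMTV-Wnt/ILK tumors and 7.08 to 7.46 in MMTV-Wnt1 tumors. Of 16 proliferation genes, MMTV-Wnt/ILK tumors averaged higher for 3 and lower for 13 (median -0.24). The part of these differences in the values of Actb and the other reference genes was not tested.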

How the data were processed

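Total RNA of 8 snap-frozen mammary tumors, 4 MMTV-Wnt/ILK and 4 MMTV-Wnt1, was depleted of ribosomal RNA and hybridized to Affymetrix Mouse Exon 1.0 ST arrays, 1 per tumor. The deposited values are log2 expression values that the authors made with the RMA algorithm of ArrayAssist (background correction, probe-set summary) and quantile normalization between chips. The labels and the methods name different ArrayAssist versions, and log base 2 was inferred from the size of the values. The array medians still differed, so the differences, ratios, SDs and counts of the reference genes were repeated on median-centred arrays, as were the gene lists after the values were seen.

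Groups and tumor numbers came from the sample labels. Genes were named through the platform annotation of the array, which can be old. Where the gene identifier of a row with 1 gene was in the mouse gene table, that table's symbol was used. For 55 rows with 1 gene it was not, and the annotation's symbol was kept. All 23332 rows entered a limma fit (version 3.58.1, R 4.3.3; lmFit and eBayes) of MMTV-Wnt/ILK minus MMTV-Wnt1, with Benjamini-Hochberg adjustment over all rows and no filter. For single genes an exact two-sided permutation test over 70 assignments of the tumors was added. A gene was called steady where its SD over the 8 tumors was below the median SD of rows with 1 gene. For ratios to a gene, its log2 value was subtracted from every row before the fit. The design foresaw the mean of 7 other genes, of which 6 were measured. The fit was tested on simulated data. With 4 tumors per group the number of arrays limits the precision.

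The members and gene lists were chosen with earlier results of these data known. Named were all members, all other actins, the 14-3-3 family, the succinate dehydrogenase subunits, up to 3 genes with the smallest p of other lists, and the 5 genes nearest to Actb. As alternatives, an equal-variance test per row, a trended and robust variance model, array weights, median-centring, a second quantile normalization, a filter on the dimmest 25% of rows, a replicate block, other references and leaving out each tumor in turn were tried.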

Additional observations from a re-analysis of the deposited data

Results flagged for a closer look

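Tfrc in MMTV-Wnt1 tumor 3, at 11.48, stood apart from the other 3 MMTV-Wnt1 tumors, which lay between 10.05 and 10.28, by Dixon's criterion for a single distant sample. Of 14 groups examined (7 genes in 2 groups of tumors) this was the only one, and chance alone gives about 1 in 20, or 0.7 of 14. Without this tumor the difference in Tfrc between MMTV-Wnt/ILK and MMTV-Wnt1 tumors was -0.34, against -0.66 with it.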

How the results depend on the processing

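The difference in Actb kept its sign in all 17 alternatives, from -0.73 to -0.26, and stayed above an adjusted p of 0.05 (limma, 0.421 to 1.000). Some of these alternatives leave the difference at -0.55 by construction, so their sign is no separate support. They are the equal-variance test, the trended variance model, the filter on dim rows, the replicate block and the mean over rows. Leaving out each tumor gave -0.73 to -0.41, and the unadjusted p of 0.05 was lost without MMTV-Wnt/ILK tumor 1 or 4 or any MMTV-Wnt1 tumor, with repeated quantile normalization, with the equal-variance test per row and relative to the mean of the other 6 genes. Actb against the mean of the other 6 genes kept its sign in 23 alternatives, from -0.40 to -0.12, and leaving out each tumor gave -0.40 to -0.15. Here the same alternatives, and median-centring as well, leave the difference at -0.26 by construction. Relative to the mean of the other 6, the differences of Gusb, Hprt and Tbp turned to 0.220, 0.0712 and 0.0582, and relative to Actb those of Gusb, Hprt, Tbp and Sdha turned to 0.409, 0.282, 0.271 and 0.0902, by the construction of these scales. The SD of Ywhaz was 0.157 with median-centring and 0.158 with repeated quantile normalization, against 0.0685. Steady genes numbered 3 on both of these scales, and 1 to 2 when each tumor was left out (1 without MMTV-Wnt1 tumor 1). Rows at an unadjusted p of 0.05 numbered 2607 with array weights, and 727 (without MMTV-Wnt/ILK tumor 4) to 2010 (without MMTV-Wnt1 tumor 1) when each tumor was left out. Rows past the adjusted p numbered 0 to 13 then, 13 without MMTV-Wnt/ILK tumor 2. Same-numbered tumors correlated at -0.0041 to 0.155 in their deviations from group means, with 3 of 4 pairs above 0.1. In these deviations 5 of 8 tumors correlated best with their own number, each having 4 possible partners. Some such matches arise by chance, and how many was not computed. What links same-numbered tumors was not tested. The main fit treated all tumors as unpaired, with the block as an alternative. A replicate block left the difference of Actb at -0.55 (adjusted p = 0.766) and that to the other 6 at -0.26 (0.495), and gave 1485 rows at an unadjusted p of 0.05 and 0 past the adjusted p. With the block the unadjusted p was 0.0201 for Tfrc and 0.0275 for Sdha, neither of which passed 0.05 without it. Sdha passed an unadjusted p of 0.05 in 6 alternatives, Tbp in 2, Tfrc in 2 and Hprt in 1. The gene lists were also examined with median-centring and without MMTV-Wnt1 tumor 2, chosen after seeing the data: the actin filament list had 21 genes higher and 17 lower without that tumor, and the citric acid cycle list had 4 genes past an unadjusted p with median-centring and 0 without that tumor. The mean over a gene's rows equals its value, since each gene had 1 row. Small differences could not be resolved with 4 tumors per group.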
